A study of Mus musculus with 2 samples.

Results

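A group of 9 genes that mark or specify type 2 conventional dendritic cells (cDC2) was followed in mouse splenic dendritic cells (DCs) cultured with the cytokine IL-27 or with vehicle. They were Sirpa, Cd4, Csf1r, Itgam, Mgl2, Clec10a, Notch2, Dtx1 and Klf4, 9 of the 19935 genes that the platform annotation named by a probe set of their own. Each of the 9 had 1 single-gene probe set, so no choice between probe sets was needed. The members were chosen by name and not by their values in a contrast, but with earlier results of these data known. The DCs came from spleens of 8 weeks old C57BL/6 mice of wild type and were isolated by flow cytometry, and RNA from 1 IL-27 sample and 1 vehicle sample was read on 1 array each. The treatment time is written only as "ON", and the sort gate and the number of mice per sample were not stated in the labels. With 1 array per group no p-value, SD or standard error exists, and every difference below is between these 2 arrays.

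Conventional DCs present antigen to T cells and fall into type 1 cells, which excel at cross-presentation to CD8 T cells, and type 2 cells, which mainly prime CD4 T cells. In the mouse spleen many cDC2 carry SIRPα, CD11b and CD4, and a large subset of them needs Notch2 signals, which they receive in the marginal zone and bridging channels. IL-27, a heterodimer of p28 and EBI3, signals through a receptor of IL-27Rα and gp130.

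All 9 genes had a lower intensity on the IL-27 array, with a median log2 difference (IL-27 minus vehicle) of -1.24, a 2.36-fold lower level. Over all 19935 genes the median difference was 0.04, and 46.6% of genes were below 0. Of the 11140 genes bright enough for the size rule given next, 70.9% were below 0, and 7 of the 9 members are among them. Sirpa, Cd4, Csf1r, Itgam and Dtx1 were lower by a rule of size, Notch2 and Klf4 were lower by 1.68-fold and 1.89-fold without passing it, and the lectin genes Mgl2 and Clec10a were too dim on both arrays to be placed. The rule called a gene lower or higher when the arrays differed by at least 2-fold and the brighter one reached 96.2, the median over both arrays' probe set intensities. It called 5 of the 9 members lower and 0 higher, against 7.36% of all genes lower and 0.848% higher. Of the 7 members over that level minimum 5 were lower and 0 higher, against 13.2% lower and 1.52% higher among the 11140 genes over it. Those 11140 genes had a median difference of -0.34, and the 7 members one of -1.33.

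The intensity distributions of the arrays differed, with a median of 98.9 on the IL-27 array and 92.4 on the vehicle array, and the 75th percentile 215 and 267. Genes of olfactory receptors, which DCs are not expected to express, numbered 1027 and had their 95th percentile at 129 on the IL-27 array and 77.3 on the vehicle array. These percentiles are called the olfactory limit below, and a gene at or under the limit was not distinguishable from them. Whether fewer cells of a type or less RNA per cell lay behind a lower level cannot be told apart in these bulk samples.

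**Figure D1:**
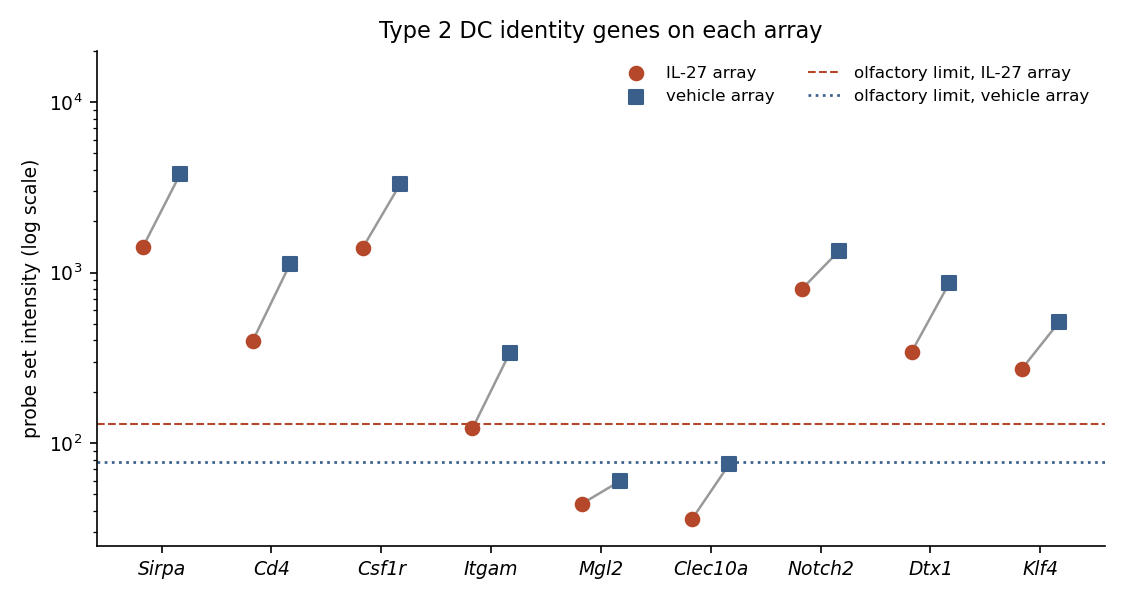
Intensity of each member on the IL-27 array (circles) and the vehicle array (squares), on a log axis, 1 array per group, with the olfactory limit of each array as a horizontal line. All 9 circles lie lower than their squares, and Mgl2 and Clec10a lie under both limits.

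RefSeq promoters were matched by symbol for 5 of the 9 members, namely Notch2, Klf4, Dtx1, Itgam and Mgl2 (build GRCm38.p6). The 250 bases upstream of the start are printed for Dtx1 and Itgam, because these are the matched members that were lower by the size rule. Capitals mark GAGGAA on either strand (TTCCTC on the printed one), a core of the binding motif of PU.1, the ETS factor on which DC and macrophage development depends.
Dtx1 (chr5:120711670-120711919, minus strand): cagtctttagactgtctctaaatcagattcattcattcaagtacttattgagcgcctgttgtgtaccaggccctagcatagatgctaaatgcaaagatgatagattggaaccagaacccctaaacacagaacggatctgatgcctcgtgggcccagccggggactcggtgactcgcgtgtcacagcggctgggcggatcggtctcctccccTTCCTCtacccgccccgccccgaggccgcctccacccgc
Itgam (chr7:128062390-128062639, plus strand): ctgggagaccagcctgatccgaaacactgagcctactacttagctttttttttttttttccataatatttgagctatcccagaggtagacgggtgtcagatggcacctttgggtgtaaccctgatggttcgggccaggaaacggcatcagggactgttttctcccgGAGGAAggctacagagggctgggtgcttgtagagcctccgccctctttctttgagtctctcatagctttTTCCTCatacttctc
GAGGAA occurred in Dtx1 at 39 to 34 bases before the start, and in Itgam at 84 to 79 and at 15 to 10 bases. It was in 3 of the 5 members' windows, with Mgl2 as the third, and in 23.3% of the 32851 RefSeq promoter windows of that length. TGGGAA, the core recognised by the Notch effector RBPJ, was in 0 of the 5 windows and in 21.6% of all windows. Both strands were searched, and matches of the 2 motifs could overlap. A match is a description of the letters and not a bound site, and the absence of one covers only these windows.

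Among the surface receptors, Sirpa and Cd4 are the ones most used to sort cDC2 in the spleen. Sirpa encodes SIRPα, an inhibitory receptor for CD47 that keeps phagocytes from engulfing healthy cells. Its intensity was 1416 on the IL-27 array and 3797 on the vehicle array, a log2 difference of -1.42 and a 2.68-fold lower level. Of the 1000 genes nearest to it in mean level, 4.2% had a difference as low or lower, and their median difference was -0.27. Sirpa stayed well over the olfactory limit on both arrays. Close relatives in the Sirpb1 group share probe sets annotated to several genes and were not used, and cross-hybridisation between them and Sirpa was not tested. Cd47, its ligand, had 1336 with IL-27 and 2118 with vehicle, a difference of -0.67 by its brighter probe set and -1.26, past 2-fold, by the other.

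Cd4, the co-receptor for MHC class II that T helper cells carry and most splenic cDC2 of the mouse also carry, had an intensity of 399 on the IL-27 array and 1126 on the vehicle array. The log2 difference was -1.50, a 2.82-fold lower level, and as deposited it was the lowest of the 9. Among its 1000 level-matched genes 4.7% were as low or lower. T cell markers were read beside it, though those under the olfactory limit could not show a lower level. Of 11 measured T cell markers, 0 were lower and 0 higher by the size rule, with a median difference of 0.10, which was 0.02 with the level trend removed and turned to -0.0019 with median centring. Their intensities summed to 950 with IL-27 and 867 with vehicle, and 7 of the 11 lay under the olfactory limit on both arrays. The olfactory receptor genes had a median of 59.0 with IL-27 and 40.5 with vehicle, so these sums in part compare background. Cd3e, a chain of the T cell receptor complex, had 114 with IL-27, under that array's limit, and 82.0 with vehicle, slightly over its limit. Cd4 was over the limit on both arrays.

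Csf1r and Itgam are carried by cDC2 and by macrophages and monocytes. Csf1r, the receptor tyrosine kinase for CSF1 and IL-34 on which macrophages depend, had 1395 on the IL-27 array and 3287 on the vehicle array. This is a log2 difference of -1.24 and a 2.36-fold lower level, and 6.5% of its 1000 level-matched genes were as low or lower. Its ligand gene Csf1 had 106 with IL-27, under that array's limit, and 91.3 with vehicle. Itgam encodes the integrin chain CD11b, which pairs with CD18 and binds ICAM-1 and complement fragments. It had 122 with IL-27, under the olfactory limit of that array, and 339 with vehicle. Against the limit it was at least 2.62-fold lower, and its deposited log2 difference was -1.47. Of its level-matched genes 5.3% were as low or lower. Itgb2, which encodes CD18, had 1660 with IL-27 and 2293 with vehicle, a difference of -0.47 that did not pass the size rule.

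Macrophage and monocyte markers were lower beside these receptors. Of 17 measured markers, 16 were over the level minimum. Of these 11 were lower and 0 higher, against 13.2% lower and 1.52% higher among all genes over it. The median difference of the 17 was -1.34 (-1.04 with the level trend removed). Their summed intensity was 16767 on the IL-27 array and 33648 on the vehicle array. Cd163, which takes up haemoglobin complexes, was lower by at least 3.59-fold, and Slc40a1, the iron exporter, Mertk, a receptor for apoptotic cells, and Fcgr4, an IgG receptor, were 4.12-fold, 3.86-fold and 3.77-fold lower. Adgre1, which encodes F4/80, was 2.91-fold lower, at 786 with IL-27 and 2287 with vehicle. Marco (-0.97), Spic (-0.95), Cd68 (-0.72), Lyz2 (-0.42) and Hmox1 (-0.16) were short of the size rule. The share of this marker list in the lower levels of Sirpa, Csf1r and Itgam was not tested. Without Cd4, Csf1r and Itgam, and without the lectin genes under the limit, the 4 members left (Sirpa, Notch2, Dtx1 and Klf4) had a median difference of -1.12. Less the median of their level-matched genes these 4 had -1.15, -0.41, -0.85 and -0.37. This subset was chosen after seeing the data and still holds Sirpa, so it is not a set free of genes shared with macrophages. Neutrophil markers, of interest because granulocytes also carry CD11b, had a median of 0.30, or 0.09 with the level trend removed. Of 10 measured, 7 lay under the limit on both arrays, and their intensities summed to 695 with IL-27 and 594 with vehicle. Cxcr2, a chemokine receptor, was the 1 lower by the size rule, at 55.4 with IL-27, under the limit, and 117 with vehicle, also under the limit of 129 of the IL-27 array.

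Mgl2 and Clec10a encode CD301b and CD301a, C-type lectins that bind galactose and N-acetylgalactosamine and mark a cDC2 subset well known from skin. Mgl2 had 44.2 on the IL-27 array and 59.6 on the vehicle array, and Clec10a 35.9 with IL-27 and 75.5 with vehicle. All 4 values lay under the olfactory limits of their arrays, so neither gene could be told from background, and no fold or rank among other genes is given. The log2 differences as deposited were -0.43 for Mgl2 and -1.07 for Clec10a. The 2 genes are paralogs that follow each other directly in the RefSeq gene table, and cross-hybridisation between their probe sets was not tested.

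Notch2 and Dtx1 belong to the Notch branch. Notch2, the receptor required for the Esam-positive splenic cDC2, had 802 on the IL-27 array and 1346 on the vehicle array. The log2 difference of -0.75, 1.68-fold lower, did not pass the size rule, and 22.0% of the level-matched genes were as low or lower. Dtx1 encodes Deltex1, a ubiquitin ligase that is itself a Notch target. It had 344 with IL-27 and 864 with vehicle, a log2 difference of -1.33 and a 2.51-fold lower level. Among its level-matched genes 8.1% were as low or lower. With the trend of difference on level removed Dtx1 had -0.94 and was short of 2-fold.

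Most other genes of the Notch pathway were short of the size rule. Of 35 measured genes beside the members, 31 were over the level minimum, and 3 were lower, 0 higher and 28 neither, with a median difference of -0.23 (-0.06 with the level trend removed). Over all genes above the level minimum 13.2% were lower, and the Notch list was not tested against the members. The lower genes were Itch, a ligase that ubiquitinates Notch, at 2.38-fold, Adam10, the protease that cleaves the activated receptor, at 2.14-fold, and Mfng, a glycosyltransferase acting on Notch, at least 2.01-fold. With the level trend removed none of these 3 reached a 2-fold difference (Itch -0.94, Mfng -0.89, Adam10 -0.66). Hes1, a classical Notch target, had 192 with IL-27 and 337 with vehicle, a difference of -0.81 short of the size rule. Rbpj, the DNA-binding partner of the cleaved receptor, went the other way at 1382 with IL-27 and 982 with vehicle, a difference of 0.49. Its second probe set was under the limit on both arrays. Notch1 had 181 with IL-27 and 169 with vehicle. Dtx1 was past the size rule and Hes1 and Notch2 were not, and the difference between them was not tested.

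Klf4 and Irf4 are transcription factors of cDC2. Their differences had opposite signs on these arrays, and as deposited both were short of the size rule. Klf4, a zinc finger factor needed in cDC2 for T helper 2 responses, had 271 on the IL-27 array and 512 on the vehicle array. The log2 difference was -0.92, 1.89-fold lower, which missed the size rule narrowly. With median centring it was -1.01 and passed, and with the level trend removed it was -0.48. Of its level-matched genes 23.8% were as low or lower, and their median difference was -0.54. Irf4 had 698 with IL-27 and 529 with vehicle, a difference of 0.40, which was above 0 under each scaling tried (0.30 to 0.77). Among 15 other KLF genes, of which 13 were over the level minimum, 1 was lower and 12 neither, with a median difference of -0.10. Of all genes over that minimum 13.2% were lower. The lower KLF gene was Klf2, a regulator of quiescence and migration in lymphocytes, at 313 with IL-27 and 967 with vehicle, 3.08-fold lower. Klf6 had 1637 with IL-27 and 1984 with vehicle, a difference of -0.28.

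**Figure D2:**
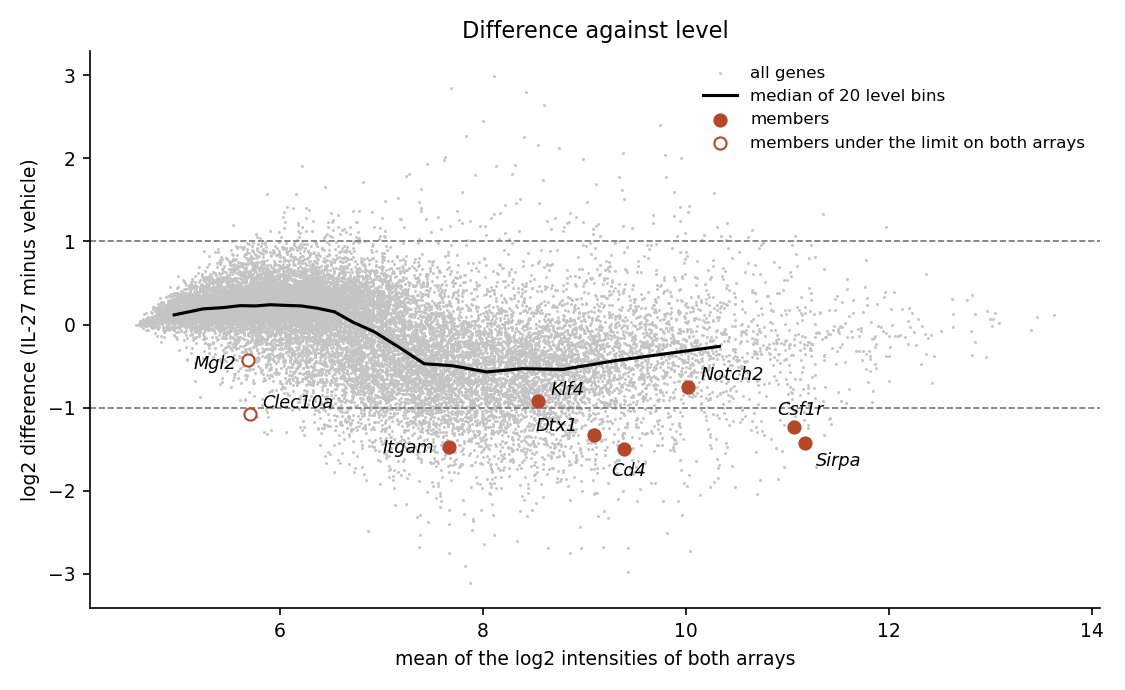
Log2 difference (IL-27 minus vehicle) against mean log2 intensity for the 19935 genes (grey), with the median of 20 level bins as a line, the members in colour and dashed lines at 2-fold. Open circles are Mgl2 and Clec10a, under the limit on both arrays, and all 9 members lie lower than the line.

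The difference depended on level in all genes, so each member was also read against the genes at its own level. The median of a level bin was 0.24 around an intensity of 59.9 and -0.57 around 263. Less the median of its 1000 nearest genes, the difference ran from -0.37 (Klf4) to -1.15 (Sirpa), with a median of -0.96 over the 7 members that exceeded the limit on at least 1 array. Sirpa, Cd4, Itgam, Csf1r and Dtx1 had -1.15, -1.06, -0.96, -0.96 and -0.85 on that scale, and Notch2 -0.41. At high level the 1000 nearest genes spread widely, from an intensity of 836 to 6372 for Sirpa. By the size rule 11.2% of the level-matched genes of Sirpa were lower, 15.0% of those of Cd4, 15.7% of those of Dtx1, 11.3% of those of Csf1r and 18.6% of those of Itgam. The 5 lower members therefore came from level ranges in which a lower call was more frequent than the 7.36% over all genes.

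**Figure D3:**
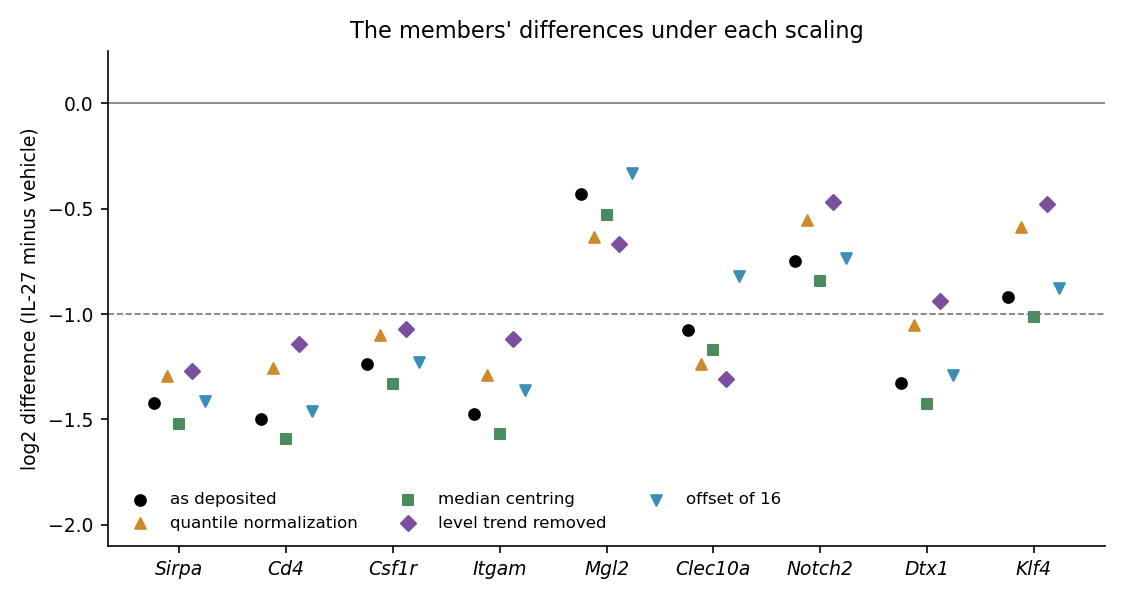
Log2 difference (IL-27 minus vehicle) of each member as deposited and under 4 other scalings, with lines at 0 and at a 2-fold lower level. Every value is below 0, and Sirpa, Cd4, Csf1r and Itgam stay past the 2-fold line under each scaling, whereas Dtx1 crosses it with the level trend removed.

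Sirpa, Cd4, Csf1r and Itgam differed by at least 2-fold as deposited and with quantile normalization, median centring, the level trend removed and an offset of 16. Dtx1 did so under all of these but the removal of the trend. Of all calls by the size rule, 10.3% were higher as deposited, 20.6% with quantile normalization and 26.2% with the level trend removed, and 4.55% and 3.73% of all genes were then lower. Of the 9 members, 5 were lower after quantile normalization and 4 with the level trend removed.

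Most other cDC2 genes also had a difference below 0 as deposited, by unequal amounts, with Irf4 (0.40) the exception among those measured. Tbx21, at -0.13, turned to 0.17 with quantile normalization and 0.24 with the level trend removed. Ccr2 lay under the olfactory limit on both arrays. Of 14 further cDC2 markers, 13 were over the level minimum. Of these 6 were lower, 0 higher and 7 neither, against 13.2% lower among all genes over it. The median difference of the 14 was -1.01 (-0.73 with the level trend removed). Taken against the olfactory limit 5 of the 6 still differed by 2-fold. Esam was 1.62-fold lower, short of the size rule (-0.34 with the level trend removed). The genes named next had the largest differences of the list. Cd209a, a DC-SIGN relative, was 6.61-fold lower, at 410 with IL-27 and 2710 with vehicle. Clec4a3 and Clec4a1, lectins of the DCIR cluster, were 6.47-fold and 3.28-fold lower. Clec4a4, which encodes the splenic cDC2 marker DCIR2, had 66.1 with IL-27, under the limit, and 297 with vehicle, at least 2.29-fold lower. The DCIR genes are relatives of one another, and cross-hybridisation between their probe sets was not tested, so they are uncertain one by one.

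The 14 type 1 DC markers, all over the level minimum, had a median difference of -1.02 (-0.74 with the level trend removed). By the size rule 7 were lower, 0 higher and 7 neither, against 13.2% lower among all genes over that minimum. The lineages were not tested against each other. Xcr1, the chemokine receptor of type 1 DCs, had 559 with IL-27 and 1579 with vehicle, and Cd8a 555 with IL-27 and 1600 with vehicle. Tlr3, a sensor of double-stranded RNA, was at least 4.98-fold and Snx22 at least 2.11-fold lower. Ly75 (0.39) and Id2 (0.04) were above 0 as deposited, and Clec9a (-0.59), Irf8 (-0.67) and Batf3 (-0.77) were short of the size rule. The 10 markers shared by DCs, all over the level minimum, had a median of -0.48, with 4 lower and 0 higher, against the same 13.2% lower. The lower ones were Kmo and Bcl11a, at 4.92-fold and 4.69-fold, and Dpp4 and Flt3, at 2.14-fold and 2.11-fold. Zbtb46 had 340 with IL-27 and 344 with vehicle, a difference of -0.02 (0.42 with the level trend removed). It and the MHC class II and invariant chain genes in that list, with differences of -0.08 to 0.12, drew the list's median toward 0. Itgax, which encodes CD11c, had 1829 with IL-27 and 3371 with vehicle, a difference of -0.88 that missed the size rule. In the other groups of cells the medians were -0.49 for 9 plasmacytoid DC markers, -0.73 for 7 of B cells and 0.15 for 8 of NK cells. With the level trend removed they were -0.05, -0.33 and 0.03. Of those over the level minimum, 1 of 8, 2 of 7 and 2 of 4 were lower, against 13.2% of all genes over it. The NK median rests in part on 4 of the 8 markers that lay under the olfactory limit on both arrays.

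**Figure D4:**
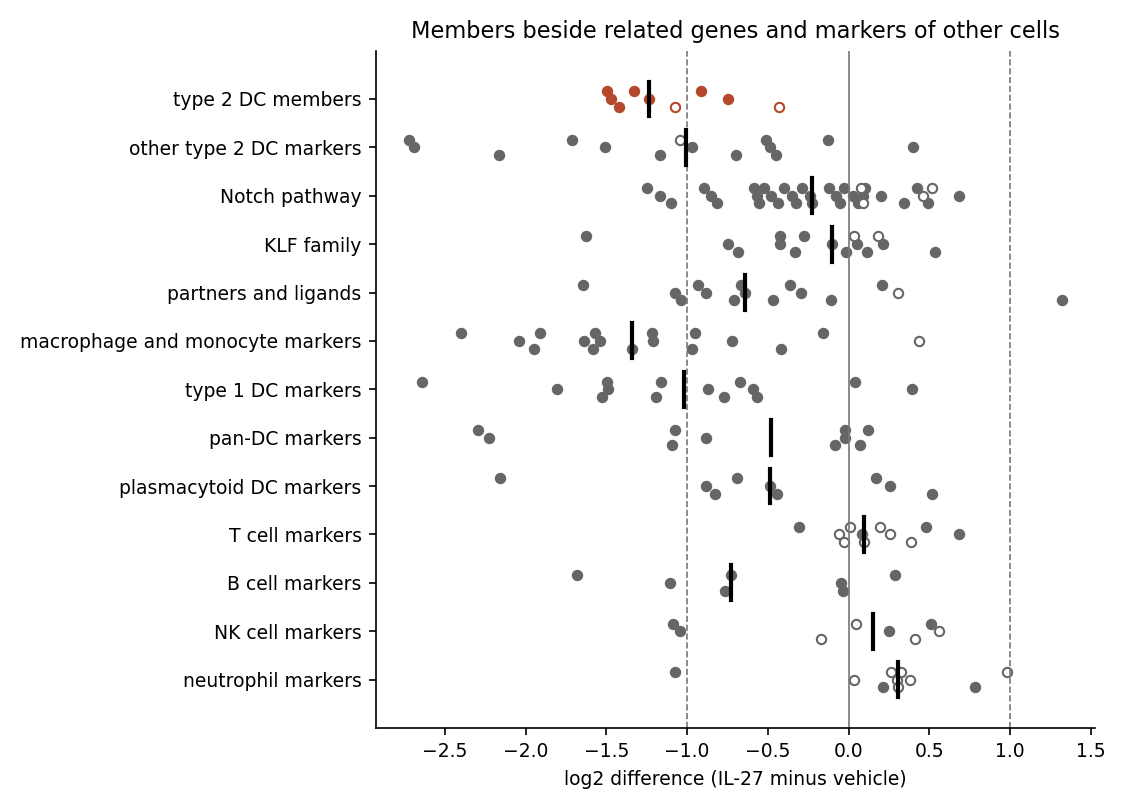
Log2 difference (IL-27 minus vehicle) of each gene in the members, top row, and in 12 lists of related genes and of markers of other cells, with a black bar at each median, open circles for genes under the olfactory limit on both arrays and dashed lines at 2-fold. The members' median is -1.24, beside -1.34 for macrophage and monocyte markers, -1.02 for type 1 DC markers and 0.10 for T cell markers.

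Among the growth factor receptors that act with or beside Csf1r, the directions were split. Flt3, the receptor through which FLT3 ligand maintains DCs, had 851 with IL-27 and 1796 with vehicle, 2.11-fold lower (-0.83 with the level trend removed, short of 2-fold). Csf2rb, the shared signalling chain of the GM-CSF, IL-3 and IL-5 receptors, had 4149 with IL-27 and 1657 with vehicle, 2.50-fold higher. It was the higher gene among 15 measured partners and ligands of the members' proteins. Of the 14 over the level minimum 3 were lower, against 13.2% of all genes over it. Csf2rb shares most of its sequence with Csf2rb2, so its signal is not assigned with certainty. Csf2ra, the chain specific for GM-CSF, had 1266 with IL-27 and 1975 with vehicle, a difference of -0.64. Among the integrin relatives of Itgam, Itgad (CD11d) was 3.13-fold lower by its brighter probe set, at 619 with IL-27 and 1939 with vehicle. Its other probe set, at 81.4 with IL-27 and 79.2 with vehicle, differed by 0.04.

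The genes whose pair of values was most like each member's were found by distance in the plane of both log2 intensities, which rests on 2 arrays and says nothing of shared control. The nearest to Csf1r was Ifi205, a type 1 DC marker here, at a distance of 0.05, with 1417 with IL-27 and 3178 with vehicle. The nearest to Sirpa was Trf, at 0.13, and to Cd4 Arsb, at 0.10. Dtx1 lay nearest to Nek7, Itgam to Frmd4a and Notch2 to Ankrd13a, all at 0.03. Klf4 lay nearest to Rwdd1, Mgl2 to Mkrn1-ps1 and Clec10a to Gpr34, at 0.0078, 0.011 and 0.017. For Mgl2 and Clec10a the nearest gene rests on values under the olfactory limits, not told from background.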

How the data were processed

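Per the labels' protocols, total RNA of the sorted DCs was the starting material, and fragmented, biotin-labelled product (Affymetrix WT Terminal Labeling Kit) went onto 1 array per sample. The deposited table held linear intensity values of 28815 probe sets on both arrays. How the authors corrected, summarized and normalized them is not stated in the labels. The build was mm8 per the submitters' processing notes, and coordinates are printed only for RefSeq promoters of GRCm38.p6. Of the probe sets, 21780 had 1 gene, 1605 had several and were not named, and 5430 are unnamed here. For a gene with several probe sets the one with the highest mean log2 was used. All 9 members' symbols were the same in the RefSeq gene table. Log2 was taken with no offset in the values as reported. No detection call came with the values, so the olfactory limit was used instead, and where 1 array lay at or under it the fold was taken against it.

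Differences are log2 IL-27 minus log2 vehicle, and no test was made. Alternatives were quantile normalization, median centring, lowess removal of the level trend (span 0.3, statsmodels 0.14.6), an offset of 16, the mean of probe sets, other level minimums and size rules, and 300 or 3000 in place of 1000 level-matched genes. In simulated data, known shifts were added to shuffled differences of reduced scatter, and the removal of the trend and quantile normalization were run on them. The level minimum, the olfactory limit and the level-matched comparison were not part of that simulation. The members, the 12 gene lists and the olfactory limit were chosen with earlier results of these data known. Named genes were all members, the nearest gene to each member and 15 genes named whatever their values, with others taken from the up to 4 most different genes of each list over the level minimum. Which of these last are printed was decided after their values were seen. So was the naming of Esam, Tbx21, Ccr2, Ly75, Id2, Clec9a, Irf8, Batf3, Zbtb46, Spic, Marco, Cd68, Lyz2 and Hmox1.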

Additional observations from a re-analysis of the deposited data

How the results depend on the processing

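All 9 members' differences stayed below 0 as deposited and with quantile normalization, an offset of 16, the mean of probe sets, median centring and the level trend removed. The number of members lower by the size rule was 5 as deposited, 6 with median centring and 4 with the level trend removed. Of all genes 7.36%, 9.38% and 3.73% were lower under these settings. The member count was 7 with a 1.5-fold rule, which added Notch2 and Klf4. With no level minimum it was 6, the added member being Clec10a, under the olfactory limit on both arrays. Under the other alternatives the count was 5. The share over all genes was not taken for other size rules or level minimums. The members' median of -1.24 was -1.10 with quantile normalization, -1.33 with median centring, -1.07 with the level trend removed and -1.23 with an offset of 16. As a mean it was -1.13, over the members above the level minimum alone -1.33, and without Cd4, Csf1r and Itgam -0.995. That last value includes Mgl2 and Clec10a, and without them too it was -1.12, an alternative chosen after seeing the data. Less the level-matched genes the median was -0.96 with 1000 neighbours, -0.98 with 300 and -0.84 with 3000, and -0.96 without Mgl2 and Clec10a. The T cell marker median turned to -0.0019 with median centring. Over all genes, 1468 were lower and 169 higher as deposited, 907 and 235 after quantile normalization, and 744 and 264 with the level trend removed. No paired analysis was possible because each group held 1 array, and no replicate could be left out. Signal near the olfactory limit leaves Mgl2, Clec10a and the size of the Itgam difference undetermined.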
